A study of Mus musculus with 18 samples.

Results

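Ferritin and the genes that bring iron into a cell, reduce it and send it out were followed through cultured mouse fibroblasts. The set held 9 genes of the 24445 symbols in the expression table, and all 9 were among the 12599 genes tested. They were the ferritin chains Ftl1 and Fth1, the transferrin receptor Tfrc, the exporter Slc40a1, the importer Slc11a2, the metalloreductases Steap3 and Steap4, and the iron regulatory proteins Aco1 and Ireb2. The genes were named as a list, with the FPKM values of these libraries and earlier results from them known. For each symbol 1 transcript was used, chosen by the highest mean FPKM over 18 libraries, and Ftl1 was read also by its 6 parts. Levels are therefore given as a description, and a test of a member is not independent of that choice.

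Cells were primary fibroblasts from the tail tips of mice aged 2 months, at passage 5. The study concerns CRISPR/Cas9 targeting of Lmna, the lamin A gene, in a mouse model of Hutchinson-Gilford progeria, whose mutant allele is written Pro. The genotypes were Pro/Pro;Cas9/+, called homozygous Cas9 cells here, Pro/+; +/+, called heterozygous cells, and +/+;Cas9/+, called wild-type Cas9 cells. Each genotype came from 2 mice, numbered in accession order, and the name of heterozygous mouse 2 does not tell whether it was 1 animal or a pool. Cells of every mouse received lentivirus with mCherry and a guide RNA in 3 separate cultures: the control guide gMock, or gLmna-1 or gLmna-2 against Lmna. That made 9 groups of 2 libraries. All groups thus shared viral transduction, and the heterozygous cells carried no Cas9, so that the Pro dose and the presence of Cas9 cannot be told apart in comparisons with them. Polybrene was used at 4 µg/ml in all groups. Cells were neither selected nor sorted, and over 80% were mCherry positive. The labels do not name the promoter that drives Cas9.

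Libraries held 22424386 to 42622193 reads, as worked out from the smallest steps of the FPKM values. Levels are in FPKM (fragments per kilobase of transcript, scaled to the reads of the library), which are already per length. Genes can be compared where reads fall along the whole transcript, which was not so for Ftl1, as given below. Markers of the labelled cell type were present: all 10 fibroblast markers had a mean of at least 1 FPKM, and their summed level was 4001 to 9544 FPKM. Macrophage markers were present too, 16 of 17 listed symbols in the table and all 16 with a mean of at least 1 FPKM, at a summed 87.4 to 1905 FPKM led by Lyz2 and Ctss. Of 9 erythroid markers, 5 were at 0 in every library, all of them globin genes, and the sum did not pass 0.413 FPKM. Summed markers reached 2.92 FPKM for keratinocytes and 3.74 FPKM for endothelium, and ran from 7.28 to 66.4 FPKM for skeletal muscle, 20.6 to 63.4 FPKM for adipocytes and 9.13 to 43.1 FPKM for pigment and Schwann cells.

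Cells take up iron bound to transferrin through Tfrc, reduce it in the endosome with Steap3 and move it into the cytosol through Slc11a2. Spare iron is stored inside a shell of Ftl1 (light) and Fth1 (heavy) chains, and Slc40a1, ferroportin, is the exporter. When iron is scarce, Aco1 and Ireb2 bind iron-responsive elements, short RNA hairpins: in the 5′ untranslated region of ferritin and ferroportin mRNA they block translation, and in the 3′ untranslated region of Tfrc mRNA they protect the message from decay. RNA levels of ferritin therefore do not give its protein level.

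The hairpins are printed because they tie the members to Aco1 and Ireb2. They were sought in the untranslated regions of GENCODE transcripts (GRCm38, the build of mm10), on the sense strand, as a C, then 5 bases, then the loop CAGTGN or CAGAGN, where the 5 bases before the loop had to pair with the 5 bases after it. Each is 29 bases long, 5′ to 3′, with the loop in capitals.
Ftl1, 5′ region, chr7:45459779-45459807, minus strand: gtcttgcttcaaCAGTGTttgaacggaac
Fth1, 5′ region, chr19:9982732-9982760, plus strand: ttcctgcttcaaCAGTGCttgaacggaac
Slc40a1, 5′ region, chr1:45925465-45925493, minus strand: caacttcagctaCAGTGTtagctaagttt
Tfrc, 3′ region, chr16:32631160-32631188, plus strand: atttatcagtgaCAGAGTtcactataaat
Tfrc, 3′ region, chr16:32631219-32631247, plus strand: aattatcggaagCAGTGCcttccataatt
Tfrc, 3′ region, chr16:32631598-32631626, plus strand: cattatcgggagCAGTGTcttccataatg
Tfrc, 3′ region, chr16:32631663-32631691, plus strand: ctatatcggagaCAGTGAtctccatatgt
Tfrc, 3′ region, chr16:32631710-32631738, plus strand: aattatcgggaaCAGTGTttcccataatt

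Both ferritin chains and Slc40a1 had 1 match in the 5′ region, and Tfrc had 5 in the 3′ region. A match was held by 0.294% of 4076 genes with a 5′ region of similar length to that of Ftl1, by 0.299% of 4020 for Fth1 and by 0.394% of 3810 for Slc40a1. For 3′ regions as long as that of Tfrc, 2.08% of 2794 genes held one. The untranslated regions of Slc11a2, Steap4, Steap3, Ireb2 and Aco1 used here held no match with both the letters and the pairing. The search took 1 transcript per gene, and a longer Slc11a2 transcript, of 4355 bases, is not covered by it.

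Fth1 was the most abundant member, with a mean of 2351 FPKM over 18 libraries, and Ftl1 came next at 270 FPKM. The Ftl1 value is a mean over its parts that includes part 5, at 0 in 17 of 18 libraries, so its distance from Fth1 is uncertain. Tfrc (14.9), Steap3 (14.5), Aco1 (14.3), Ireb2 (13.3) and Slc11a2 (11.7 FPKM) lay close together, and the ranges of each neighbouring pair overlapped. Steap4 had a mean of 4.57 FPKM and Slc40a1 of 0.930 FPKM. The members differed widely in how much they varied. Aco1 had the smallest coefficient of variation over libraries, 7.06%, followed by Slc11a2 with 9.497% and Ireb2 with 12.9%, while Ftl1 reached 89.1% and Steap4 94.1%.

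**Figure D1:**
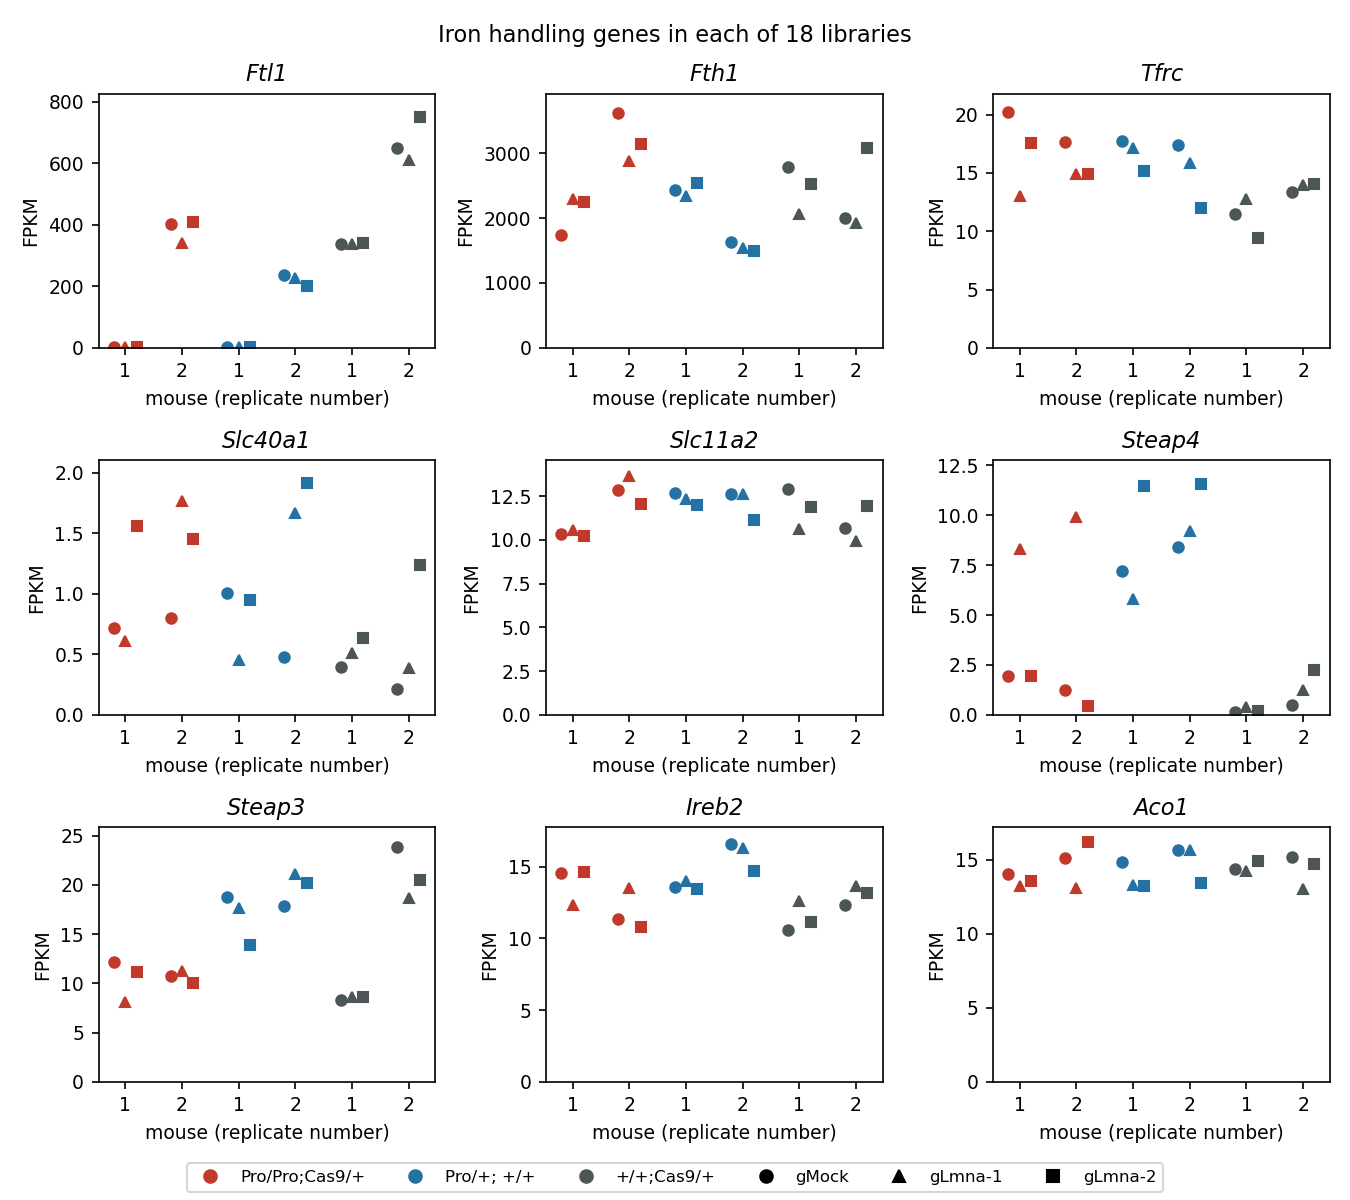
FPKM (linear axes from 0) of the 9 members in each of 18 libraries, with 6 mice side by side, colours for the genotypes and symbols for the guides. The Ftl1 points of homozygous mouse 1 and heterozygous mouse 1 lie at 4.02 FPKM or less, and the Steap4 triangles of both homozygous mice, 8.32 and 9.90 FPKM, stand above the gMock and gLmna-2 points of the same mice.

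Ftl1, the ferritin light chain (chr7:45457944-45459886, minus strand, 964 bases), split the mice and not the guides. In homozygous mouse 1 it was at 2.70, 4.02 and 3.94 FPKM with gMock, with gLmna-1 and with gLmna-2. Homozygous mouse 2 had 403, 340 and 408 FPKM in the same order. The mice of this genotype thus differed 108-fold in their mean.

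Heterozygous mouse 1 had 2.34, 2.67 and 2.21 FPKM of Ftl1 with gMock, with gLmna-1 and with gLmna-2. Heterozygous mouse 2 had 235, 227 and 200.5 FPKM, a 91.8-fold higher mean. Both mice with wild-type Lmna expressed the gene, at 339, 337 and 340 FPKM in mouse 1 and at 651, 610 and 750 FPKM in mouse 2. All 3 cultures of a mouse agreed in each case, and between any pair of cultures of a mouse the level differed by a factor of 0.827 to 1.49.

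Homozygous mouse 1 under gMock, the deepest library of all, gave 111 Ftl1 reads. Over the 6 libraries of the low mice there were 54 to 119 reads, against 6894 to 20386 in each library of the other mice. The summed level of the macrophage markers was 1079 and 1125 FPKM in the homozygous mice that differed 108-fold in Ftl1, and 531 and 149 FPKM in heterozygous mice 1 and 2, and their part in the Ftl1 level was not tested. In bulk RNA, fewer cells with a transcript and less transcript per cell cannot be told apart.

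Mice of 1 genotype differed so much that the genotype comparison has a wide error. Under gMock, homozygous Cas9 cells differed from wild-type Cas9 cells by −3.61 in log2(FPKM + 1) for Ftl1 (SE 2.70, limma adjusted p = 0.86), and heterozygous cells by −4.07 (SE 2.70, limma adjusted p = 0.57). Under the Lmna guides these differences were −3.48 (SE 2.57, limma adjusted p = 0.59) and −4.15 (SE 2.57, limma adjusted p = 0.37). Ftl1 did not pass the threshold of 0.05 in any comparison.

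The reads of Ftl1 were not spread evenly along its exons. The parts of exon 4, 3′ untranslated (part 1) and coding (part 2), and the 5′ untranslated part of exon 1 (part 6) carried almost all reads in the mice with high Ftl1. In homozygous mouse 2 their means over 3 libraries were 534, 787 and 559 FPKM for parts 1, 2 and 6. In homozygous mouse 1 the same parts had 0.482, 4.91 and 1.29 FPKM. Heterozygous mouse 2 had 288, 417 and 359 FPKM, and heterozygous mouse 1 had 0.479, 3.89 and 1.35 FPKM. Wild-type mice had 453, 707 and 497 FPKM (mouse 1) and 893, 1355 and 1028 FPKM (mouse 2).

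The inner coding parts of Ftl1 behaved in another way. Exon 3 (part 3, chr7:45458535-45458660) lay at 2.35 to 10.2 FPKM and exon 2 (part 4, chr7:45459084-45459230) at 4.00 to 15.8 FPKM over all 18 libraries. Mice with high and low Ftl1 overlapped in both parts: part 4 had a mean of 8.46 FPKM in homozygous mouse 1 and 7.61 FPKM in heterozygous mouse 2. The coding part of exon 1 (part 5, chr7:45459530-45459631) was listed at 0 in 17 of 18 libraries, where 3 reads would have given 0.697 to 1.32 FPKM. Parts 3 to 5 together held 55.5% to 73.1% of the Ftl1 reads in the libraries of homozygous mouse 1 and 50.6% to 55.6% in those of heterozygous mouse 1. In the libraries of the other mice they held 0.317% to 1.04%.

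**Figure D2:**
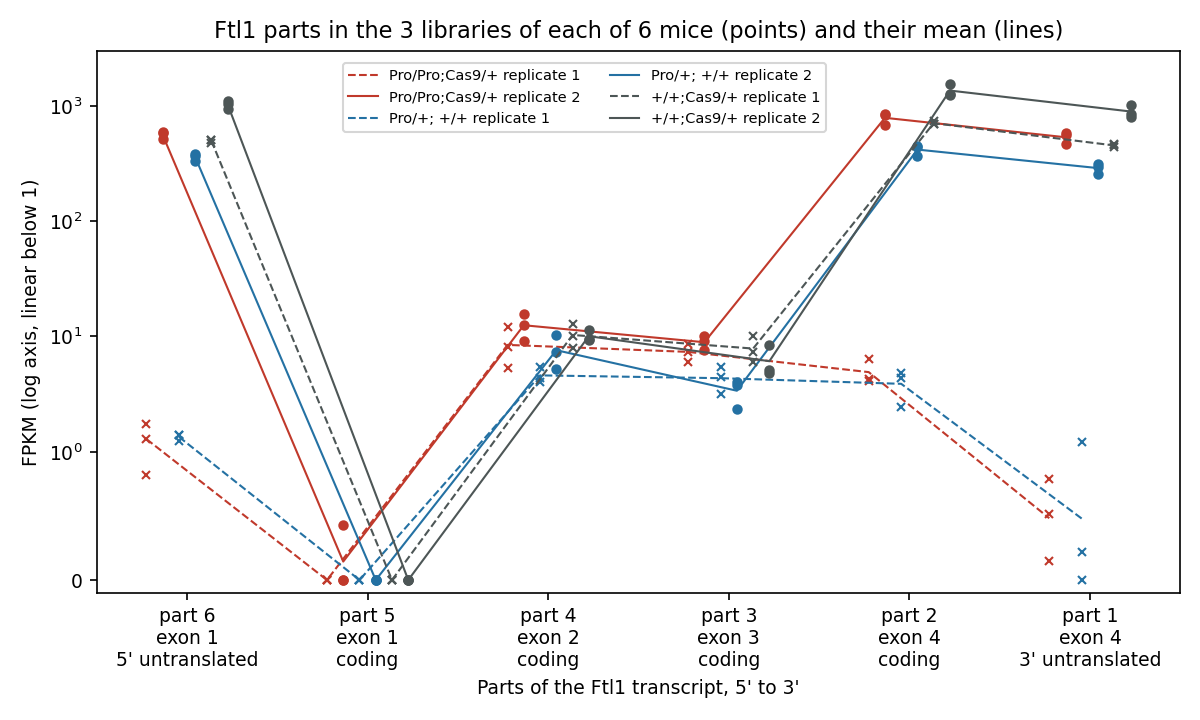
FPKM of the 6 parts of Ftl1, ordered 5′ to 3′, on an axis that is logarithmic above 1 and linear below, with 1 point per library and a line through the mean of each mouse. Dashed lines of homozygous mouse 1 and heterozygous mouse 1 stay under 10 FPKM in every part, while the other mice share their level only in parts 5, 4 and 3.

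Ftl1 has near-identical copies elsewhere in the genome, so its level is uncertain in itself. The annotation places Ftl1-ps1 at chr13:74399694-74407346, Ftl1-ps2 at chr10:130592157-130592705 and Ftl2-ps at chr4:125504288-125504839, and none of these has a row in the expression table. Ftl1-ps1 matched Ftl1 at 99.6% of 910 aligned bases, with 4 mismatches. None of them lay in parts 3, 4 and 5, which were identical in both. Every stretch of 50 bases in parts 3 to 6 also occurred in another annotated gene, against 89.5% of stretches in part 1 and 58.2% in part 2. How reads that fit several places were counted is not given in the sources used here, and its part in the levels was not tested.

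The mismatches of the coding end are shown because part 2 had the smallest share of stretches found elsewhere. Positions count from 1 at the 5′ end of Ftl1, the capital marks the base that differs, and the pairs are G721A (chr7:45458177-45458205, minus strand) and G757A (chr7:45458141-45458169, minus strand), written with the base of Ftl1 first.
Ftl1 at G721A: ctccgcagggtggcGgggccacaaccagc
Ftl1-ps1 at G721A: ctccgcagggtggcAgggccacaaccagc
Ftl1 at G757A: ggcgcgccccagggGtctctgggcgagta
Ftl1-ps1 at G757A: ggcgcgccccagggAtctctgggcgagta

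Genes around Ftl1 did not share its range. The highest mouse mean over the lowest was 279 for Ftl1, 1.19 for Bax, 1.12 for Nucb1, 1.14 for Snrnp70, 1.28 for Ruvbl2, 2.07 for Gys1 and 6.96 for Dhdh, a gene with a mouse mean of 1.04 to 7.22 FPKM. Likeness was measured as Pearson's r of log2(FPKM + 1) over 18 libraries, 3 from each of 6 mice, among 7971 genes. Htatip2 was most like Ftl1 (r = 0.975), and the kinase gene Lrrk1 (r = 0.867) was also among the genes most like it.

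Both lie on chromosome 7, as Ftl1 does, at chr7:49759045-49774000 and chr7:66258745-66388341. Of the genes considered, 7.33% lie on that chromosome. Htatip2 had mouse means of 2.71 and 3.06 FPKM in the mice with low Ftl1, against 23.4 in homozygous mouse 2, 17.5 in heterozygous mouse 2, and 23.8 and 42.5 FPKM in the wild-type mice.

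Fth1, the ferritin heavy chain that oxidises iron for storage (chr19:9982646-9985111), was high in every library, at 1491 to 3628 FPKM. Homozygous mouse 1 had 1742, 2297 and 2248 FPKM with gMock, with gLmna-1 and with gLmna-2, and mouse 2 had 3628, 2888 and 3147 FPKM. Heterozygous mouse 1 had 2434, 2338 and 2541 FPKM, and mouse 2 had 1639, 1540 and 1491 FPKM. Wild-type mouse 1 had 2789, 2062 and 2531 FPKM, and mouse 2 had 2009, 1921 and 3075 FPKM. The genotypes overlapped, and the mice with low Ftl1 had neither the lowest nor the highest Fth1.

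The ratio of Ftl1 to Fth1 therefore followed Ftl1, and it carries the uncertainty of the Ftl1 level. It had means of 0.00168 in homozygous mouse 1 and 0.119 in mouse 2, of 0.000991 in heterozygous mouse 1 and 0.142 in mouse 2, and of 0.140 and 0.295 in the wild-type mice. Itfg1 was most like Fth1 over the libraries (r = 0.942), followed by the sialyltransferase genes St6galnac6 (r = 0.913) and St3gal3 (r = 0.913).

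Tfrc, the receptor that brings in transferrin iron (chr16:32608896-32632794), lay at 9.44 to 20.2 FPKM. Homozygous mouse 1 had 20.2, 13.0 and 17.5 FPKM with gMock, with gLmna-1 and with gLmna-2, and mouse 2 had 17.6, 14.9 and 14.9 FPKM. Heterozygous mouse 1 had 17.7, 17.1 and 15.2 FPKM, and mouse 2 had 17.4, 15.9 and 12.01 FPKM. Wild-type mouse 1 had 11.5, 12.7 and 9.44 FPKM, and mouse 2 had 13.4, 13.9 and 14.1 FPKM.

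Under gMock the mean of Tfrc was 18.9 FPKM in homozygous, 17.6 FPKM in heterozygous and 12.4 FPKM in wild-type cells (n = 2 each). The log2 difference from wild-type Cas9 cells was 0.57 for homozygous Cas9 cells (SE 0.13, limma adjusted p = 0.18). For heterozygous cells it was 0.47 (SE 0.13, limma adjusted p = 0.25), and neither passed. With both guides against gMock in homozygous Cas9 cells the difference was −0.31 (SE 0.11, limma adjusted p = 0.48), lower in both mice. In heterozygous cells, which have no Cas9, it was −0.22 (SE 0.11, limma adjusted p = 0.9957), also lower in both mice. In wild-type Cas9 cells it was 0.0004 (SE 0.11). Homozygous minus heterozygous cells gave −0.09 (SE 0.16) for this effect, which did not pass. The genes most like Tfrc were Snapc1 (r = 0.862), Gpi1 (r = 0.852) and Slc4a7 (r = 0.849).

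Slc11a2, which carries ferrous iron across membranes (chr15:100387900-100423055), kept to 9.91 to 13.7 FPKM. Its mouse means ran from 10.4 FPKM in homozygous mouse 1 to 12.9 FPKM in homozygous mouse 2, so the lowest and the highest came from a single genotype.

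Slc40a1, the only known iron exporter of mammalian cells (chr1:45908070-45925594), was close to the limit of the filter, with at least 1 FPKM in 7 of 18 libraries and 23 to 232 reads. Homozygous mouse 1 had 0.717, 0.605 and 1.56 FPKM with gMock, with gLmna-1 and with gLmna-2, and mouse 2 had 0.803, 1.76 and 1.46 FPKM. Heterozygous mouse 1 had 1.00, 0.456 and 0.947 FPKM, and mouse 2 had 0.475, 1.67 and 1.91 FPKM. Wild-type mouse 1 had 0.397, 0.510 and 0.638 FPKM, and mouse 2 had 0.210, 0.386 and 1.24 FPKM.

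With gLmna-2 the level of Slc40a1 was above gMock in 5 of 6 mice, but the log2 differences of 0.51, 0.47 and 0.56 in homozygous, heterozygous and wild-type cells (SE 0.31 each) did not pass, with limma adjusted p of 0.70, 1.00 and 0.74. The library with the lowest Slc40a1 of a mouse was also the one with the lowest summed macrophage markers in 6 of 6 mice, and the highest coincided in 4 of 6. The part of macrophages in these values was not tested. Mtss2 (r = 0.743), Sesn1 (r = 0.715) and Nrp1 (r = 0.702) were most like it. The ratio of Tfrc to Slc40a1 RNA ran from 6.27 to 63.6 with a median of 19.6. Its highest value came from wild-type mouse 2 under gMock, where Slc40a1 was at 0.210 FPKM from 23 reads.

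Steap4, a metalloreductase that is known to respond to inflammatory signals (chr5:7960472-7982213), was the single member that passed the test. In homozygous mouse 1 it was at 1.97, 8.32 and 1.96 FPKM with gMock, with gLmna-1 and with gLmna-2, and in mouse 2 at 1.27, 9.90 and 0.428 FPKM. The gLmna-1 culture was thus the high one in both mice.

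Steap4 in heterozygous cells was at 7.23, 5.83 and 11.5 FPKM in mouse 1 and at 8.41, 9.20 and 11.6 FPKM in mouse 2. In wild-type Cas9 cells it was at 0.157, 0.406 and 0.180 FPKM in mouse 1 and at 0.511, 1.23 and 2.24 FPKM in mouse 2, from 11 to 165 reads. Libraries of the 2 heterozygous mice ran from 5.83 to 11.6 FPKM and those of the 2 wild-type mice from 0.157 to 2.24 FPKM.

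In homozygous Cas9 cells Steap4 rose from 1.62 ± 0.496 FPKM (SD, n = 2) with gMock to 9.11 ± 1.11 FPKM (n = 2) with gLmna-1, a log2 difference of 1.96 (SE 0.31, limma adjusted p = 0.033). It was 1 of 9 members called in this comparison, in which 0.976% of all genes tested were called, 0.603% as higher. Against gLmna-1, gLmna-2 cultures had 1.196 ± 1.09 FPKM (n = 2) and Steap4 fell by 2.29 in log2 (SE 0.31, limma adjusted p = 0.0056). Again it was 1 of 9 members, where 9.95% of all genes tested were called and 3.02% as lower, so a single call is close to what the share over all genes gives. With gLmna-2 against gMock the difference was −0.33 (SE 0.31, limma adjusted p = 0.85).

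The gLmna-1 call was lost when any 1 of 3 libraries was left out: the gMock library of homozygous mouse 1 (adjusted p = 0.068) or mouse 2 (adjusted p = 0.38), or the gLmna-1 library of mouse 2 (adjusted p = 0.064). Adjusted p was 0.43 when mice were not blocked. The difference between the guides passed with each library left out in turn, but not when the homozygous libraries alone were fitted (adjusted p = 0.19).

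The response of Steap4 to the guides was then compared between genotypes. gLmna-2 minus gLmna-1 was 2.88 lower on the log2 scale in homozygous Cas9 cells than in heterozygous cells (−2.88, SE 0.43, limma adjusted p = 0.025), 1 of 9 members where 2.38% of genes were called. Against wild-type Cas9 cells it was −2.44 (SE 0.43, limma adjusted p = 0.10), which did not pass, where 0.0476% of genes were called. Without the gLmna-1 library of homozygous mouse 1 the latter became −2.91 with an adjusted p of 0.013. The former was lost when any of 6 of the 8 libraries was left out, with adjusted p from 0.064 to 0.16: both gLmna-2 libraries of the homozygous mice and all 4 guide libraries of the heterozygous mice.

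Between genotypes, heterozygous cells had more Steap4 than wild-type Cas9 cells under gMock, 7.82 ± 0.832 against 0.334 ± 0.251 FPKM (SD, n = 2 each). The log2 difference was 2.73 (SE 0.22, limma adjusted p = 0.029), 1 of 9 members where 0.413% of genes were called. Under the Lmna guides it was 2.46 (SE 0.36, limma adjusted p = 0.031), 1 of 9 where 4.33% were called. The first call was lost without any 1 of the 4 mice (adjusted p = 0.12 to 0.29), and the second without 3 of them, both heterozygous mice and wild-type mouse 1 (adjusted p = 0.067 to 0.11).

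Homozygous Cas9 cells differed from wild-type Cas9 cells in Steap4 by 0.97 under gMock (SE 0.22, limma adjusted p = 0.19) and by 1.29 under the guides (SE 0.36, limma adjusted p = 0.16). Ptx3, a secreted pattern recognition protein, was most like Steap4 (r = 0.970), followed by Megf6 (r = 0.944) and Ndufa4l2 (r = 0.943). Mouse means of Ptx3 were 237 and 198 FPKM in homozygous, 343 and 382 FPKM in heterozygous and 53.3 and 96.8 FPKM in wild-type cells.

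Genes of inflammation moved in some of the same cultures as Steap4. Of 14 tested genes of a list of 15, 3 rose with gLmna-1 against gMock in homozygous Cas9 cells: Cxcl1 by 1.86 (SE 0.31, limma adjusted p = 0.039), Ccl2 by 1.21 and Vcam1 by 0.99, beside 0.603% of all genes called higher. These 3 calls were lost with no block (limma adjusted p = 0.47, 0.40 and 0.50), with the homozygous libraries alone (0.33, 0.59 and 0.59), with no filter on low values and without single libraries. Against gLmna-1, 5 were lower with gLmna-2, led by Cxcl1 at −2.18 (SE 0.31, limma adjusted p = 0.0063), and 1, Ptgs2, was higher, beside 3.02% of all genes called lower and 6.92% higher. That Cxcl1 call was lost in 4 of 11 alternatives and that of Ptgs2 in 7 of 11. The summed level of the list was 880, 1681 and 1023 FPKM with gMock, with gLmna-1 and with gLmna-2 in homozygous mouse 1 and 933, 2232 and 861 FPKM in mouse 2. Over all 6 mice, the culture with the highest sum was also the one with the highest Steap4 in 3. Macrophage markers peaked with Steap4 in 5 of 6 mice, homozygous mouse 1 being the exception. Over all 18 libraries, Pearson's r of log2 levels with Steap4 was −0.066 for the macrophage sum and 0.48 for the inflammatory sum. The part of either in the level of Steap4 was not tested.

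Steap3, the reductase of the transferrin endosome (chr1:120226416-120265280), differed between mice of the wild-type genotype. Wild-type mouse 1 had 8.34, 8.59 and 8.63 FPKM with gMock, with gLmna-1 and with gLmna-2, and mouse 2 had 23.8, 18.7 and 20.48 FPKM. Homozygous mice had 8.15 to 12.2 FPKM and heterozygous mice 13.9 to 21.1 FPKM, from 2 mice each. Homozygous Cas9 cells differed from heterozygous cells in Steap3 by −0.64 under gMock (SE 0.43, limma adjusted p = 0.97) and by −0.78 under the guides (SE 0.35, limma adjusted p = 0.39), and neither passed.

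RNA of the iron regulatory proteins varied little between libraries, and their protein levels were not measured here. Aco1, also the cytosolic aconitase (chr4:40143265-40199009), lay at 13.1 to 16.2 FPKM, and its mouse means differed by a factor of 1.10. Ireb2 (chr9:54863755-54912534) lay at 10.6 to 16.6 FPKM, with mouse means from 11.4 FPKM in wild-type mouse 1 to 15.9 FPKM in heterozygous mouse 2. The ratio of Ireb2 to Aco1 ran from 0.666 to 1.09.

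Across the guide comparisons, members other than Steap4 did not pass. With both guides against gMock, 0 of 9 were called in homozygous Cas9 cells (limma, 2 at an unadjusted p under 0.05), where 0.0794% of genes were called, 0 of 9 in heterozygous cells (0 unadjusted, 0% of genes) and 0 of 9 in wild-type Cas9 cells (0 unadjusted, 0.849% of genes). The median log2 difference of the members was 0.0027, −0.0529 and 0.0004 in these genotypes, against −0.0058, −0.0408 and −0.0217 over all genes tested. With limma voom on recovered reads the number of members called was again 0 in each.

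For single guides, gLmna-2 against gMock in homozygous Cas9 cells gave 0 of 9 members (limma, 0 unadjusted), where 0.357% of genes were called. In wild-type Cas9 cells gLmna-1 gave 0 of 9 (0 unadjusted, 0.691% of genes), gLmna-2 gave 0 of 9 (0 unadjusted, 0.564% of genes), and the guides against each other gave 0 of 9 (2 unadjusted, 0% of genes). In heterozygous cells, which have no Cas9, gLmna-1, gLmna-2 and the guides against each other gave 0 of 9 each (0, 1 and 0 unadjusted, 0% of genes each). Limma voom called 0 members in each of these as well. The difference between genotypes in the effect of both guides gave 0 of 9 for homozygous minus wild-type cells (0 unadjusted, 0.0476% of genes) and 0 of 9 for homozygous minus heterozygous cells (0 unadjusted, 0% of genes).

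Comparisons of homozygous with wild-type cells gave 0 of 9 members under gMock (limma, 2 unadjusted, 0.397% of genes called) and 0 of 9 under the Lmna guides (1 unadjusted, 0.595% of genes called). Homozygous against heterozygous cells gave 0 of 9 under gMock and 0 of 9 under the guides (1 unadjusted and 0% of genes in each). Limma voom gave 0 in all of these.

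**Figure D3:**
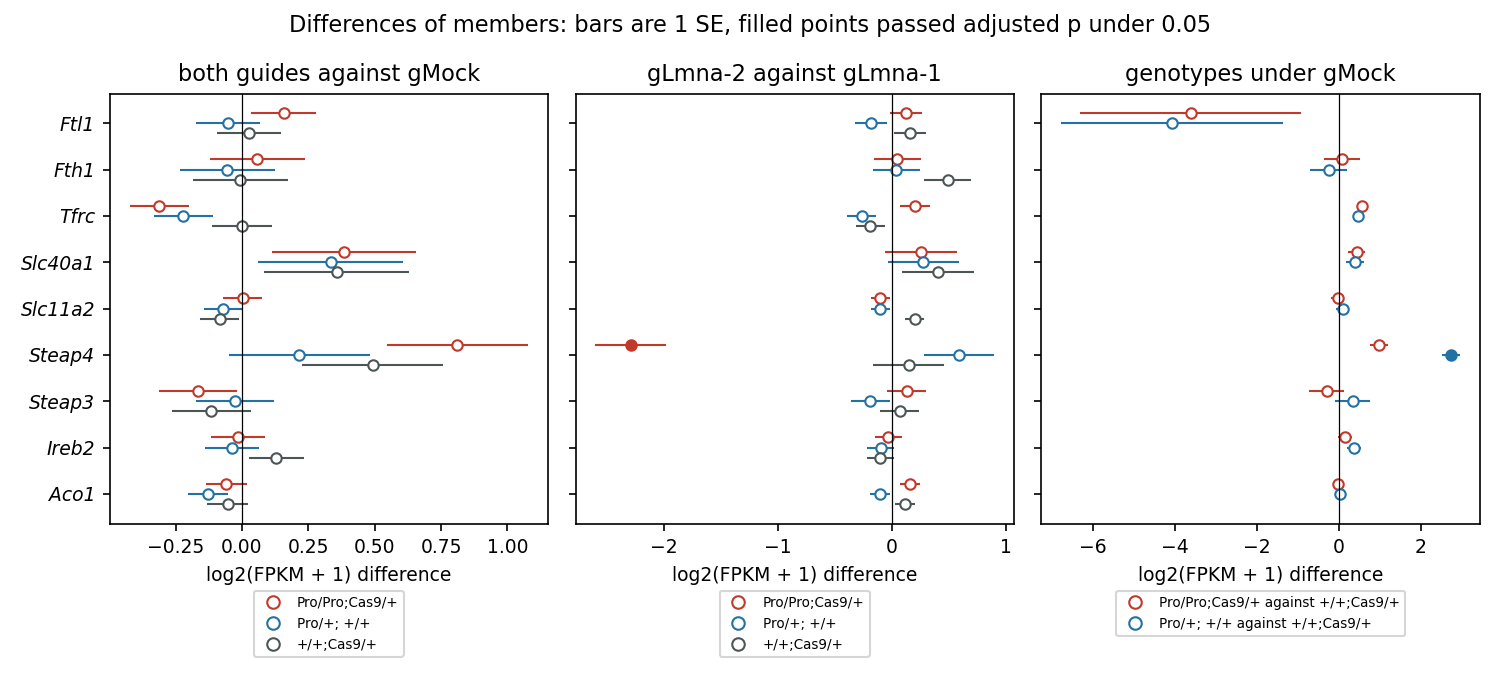
Differences in log2(FPKM + 1) of the 9 members for both guides against gMock, for gLmna-2 against gLmna-1, and for each Pro genotype against wild-type Cas9 cells under gMock, with bars of 1 SE and separate scales. Filled points passed the threshold: Steap4 at −2.29 between the guides in homozygous Cas9 cells and at 2.73 for heterozygous cells. The Ftl1 bars under gMock are wide, with an SE of 2.70.

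A wider list of 61 iron gene symbols, written with earlier results known, held 60 in the table and 49 tested. It gave no call for any Lmna guide against gMock in any genotype, beside 0% to 0.976% of all genes called, with medians within 0.08 of 0. Between gLmna-2 and gLmna-1 in homozygous Cas9 cells 5 of 49 were higher and 2 lower, with a median of 0.0864 against 0.0578 over all genes, beside 6.92% of all genes called higher and 3.02% lower.

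Scara5, the receptor through which cells take up ferritin, was the largest of these calls. It was at 21.5, 41.01 and 12.2 FPKM in homozygous mouse 1 with gMock, with gLmna-1 and with gLmna-2, and at 4.14, 26.5 and 2.30 FPKM in mouse 2. Heterozygous mouse 1 had 18.2, 25.9 and 23.4 FPKM, and mouse 2 had 24.2, 34.8 and 42.7 FPKM. Wild-type mouse 1 had 3.75, 7.58 and 3.69 FPKM, and mouse 2 had 4.45, 15.1 and 4.97 FPKM.

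With gLmna-1 the Scara5 value was 1.43 to 6.41 times that with gMock over the 6 mice, heterozygous cells without Cas9 included. How many of all genes rose in every mouse was not examined, and the Scara5 difference did not pass in any genotype. Between the guides in homozygous Cas9 cells it fell by 2.36 (SE 0.32, limma adjusted p = 0.0059), a call lost without the gLmna-2 library of mouse 2 (−2.05, adjusted p = 0.052), with no block (adjusted p = 0.13) and with the homozygous libraries alone (adjusted p = 0.19). The difference of this response from heterozygous cells was −2.44 (SE 0.45, limma adjusted p = 0.035), which was lost in 6 of 8 left-out libraries, with no filter on low values, with no block and with only the compared genotypes.

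Among the higher ones, Slc25a37, which carries iron into mitochondria for haem, was at 17.002 ± 2.45 FPKM (SD, n = 2) with gLmna-1 and 30.1 ± 11.8 FPKM (n = 2) with gLmna-2, a log2 difference of 0.74 (SE 0.13, limma adjusted p = 0.012). The hypoxia factor gene Epas1 rose by 0.71 (limma adjusted p = 0.041), Hspb1 by 0.74 (limma adjusted p = 0.040) and the retromer gene Vps35 by 0.26 (limma adjusted p = 0.039). Exoc6, under the level set for naming and named after its value was seen, rose by 0.49. Hfe, a partner of the transferrin receptor, fell by 0.50 (limma adjusted p = 0.044), from 8.27 and 9.38 FPKM with gLmna-1 to 6.23 and 5.67 FPKM with gLmna-2. With no block the calls of Slc25a37, Epas1, Hspb1, Vps35 and Hfe were lost (limma adjusted p = 0.20, 0.26, 0.16, 0.12 and 0.27), as they were with the homozygous libraries alone (0.21 to 0.37) and without at least 2 of the 4 single libraries. In the list, heterozygous against wild-type Cas9 cells under the Lmna guides gave Hif1a as higher, by 1.14 (SE 0.11, limma adjusted p = 0.017), and Hspb1 as lower, by −0.74 (limma adjusted p = 0.045), beside 4.33% of all genes. Both were lost with no filter on low values and without any 1 of 3 of the 4 mice.

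**Figure D4:**
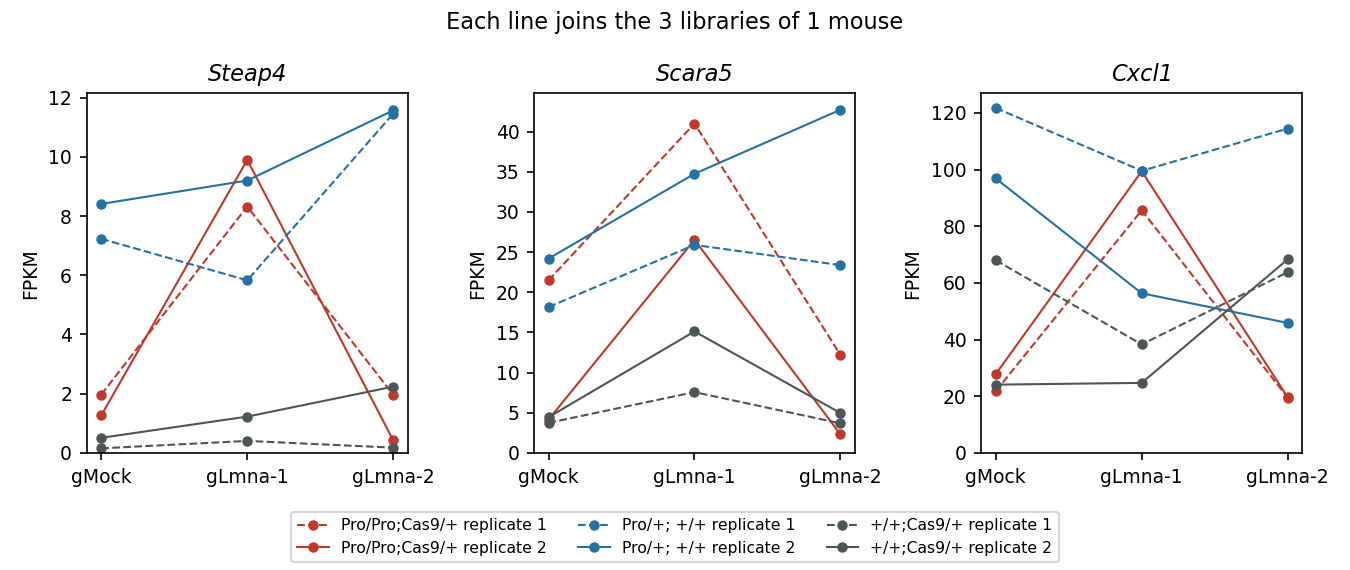
FPKM of Steap4, Scara5 and the chemokine gene Cxcl1 with gMock, with gLmna-1 and with gLmna-2, 1 line per mouse, on linear axes from 0. The red lines of both homozygous mice peak at gLmna-1 in all 3 panels.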

How the data were processed

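RNA of 18 fibroblast cultures was sequenced. The tools were FastQC 0.11.2, STAR 2.4.0k on mm10 and HOMER, per the submitters' processing notes. The authors deposited HOMER's FPKM for exons, with a row for every part of a transcript (404759 rows, 36795 transcripts) and its length in bases, per the file headers. Strand and the handling of reads with several matches are not given in the sources used here, so overlapping and antisense genes cannot be separated. Of 24 library columns, 6 matched no labelled sample and were not used.

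Parts were joined by a length-weighted mean and named from RefSeq (36469) and GENCODE (197), and the transcript with the highest mean was kept per symbol. In the values tested, 100% were whole multiples of a read's step (tolerance 0.05), which gave the reads per library; intervals and floors cover counting error only. The test took genes that reached 1 FPKM in 2 or more libraries, on log2(FPKM + 1), which understates changes of low genes, with limma 3.58.1 (trended eBayes, R 4.3.3), adjusted by Benjamini-Hochberg over 12599 genes at 0.05, in 22 comparisons. Guide effects were fitted on 18 libraries with the mouse as a block (6 residual degrees of freedom), because cells of the same mouse received all 3 treatments. Correlations of a mouse's libraries, after group means were removed, were −0.02 to 0.78 in homozygous, 0.47 to 0.73 in heterozygous and 0.18 to 0.59 in wild-type cells. Genotypes were compared over 6 mice (3 residual degrees of freedom), using gMock libraries or the mean of the guide libraries. Comparisons share libraries: both guides share the gMock library of a mouse. The fits were tested on simulated data.

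Members and lists were chosen with earlier results of these data known, so their calls are not independent of that choice. Named iron genes had the smallest p among those that passed, at most 6 with a mean of at least 2 FPKM. Like genes were the 3 with the highest r among those with a mean of at least 5 FPKM; 1 of those of Ftl1 is not reported here. Marker lists for keratinocytes, endothelium, skeletal muscle, adipocytes, and pigment and Schwann cells, and lists of NRF2 targets and proliferation genes, were examined too. Python 3.11.15, numpy 2.4.6, pandas 2.3.3, biopython 1.88 and matplotlib 3.10.9 were used. Alternatives were another pseudocount, no filter, scaling to one median, limma voom on recovered reads, no block, fewer genotypes, another transcript, mean of 3 libraries, comparison within replicate numbers and each library or mouse left out.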

Additional observations from a re-analysis of the deposited data

Results flagged for a closer look

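The difference between the guides in Steap4 differed between homozygous Cas9 cells and heterozygous cells, which have no Cas9. gLmna-2 minus gLmna-1 was −2.29 in cells of the homozygous mice but 0.58 in those of the heterozygous mice, and the test of the difference itself gave −2.8763 in log2(FPKM + 1) (SE 0.43, limma adjusted p = 0.025), with both homozygous mice lower and both heterozygous mice higher with gLmna-2. The call was kept in 6 of 15 alternatives. Against wild-type Cas9 cells the same difference was −2.44 (SE 0.43, limma adjusted p = 0.10) and did not pass. The Pro dose and the presence of Cas9 cannot be told apart in the comparison with heterozygous cells, and the cause of the difference was not tested.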

How the results depend on the processing

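Of 272 recomputed counts of members called, 243 stayed within 1.5 times the reported one and 29 moved, all through Steap4. Most comparisons began at a count of 0, with at most 0.849% of genes called, so staying at 0 says little. Where Steap4 was called, gLmna-1 against gMock kept the call in 4 of 11 alternatives and gLmna-2 against gLmna-1 in 10 of 11. Homozygous minus heterozygous cells kept it in 6 of 15. Heterozygous against wild-type cells kept it in 6 of 11 under gMock and 5 of 11 under the guides. The count of 1 became 0 for gLmna-1 against gMock in homozygous Cas9 cells with a pseudocount of 0.1, no filter, no replicate block or only the compared genotypes, for the difference of the guides between homozygous and heterozygous cells with the last 3 of these, for heterozygous against wild-type cells under gMock with no filter, and under the guides with a pseudocount of 0.1, no filter or only the compared genotypes. For gLmna-2 against gLmna-1 in homozygous Cas9 cells it became 0 with only the compared genotypes (adjusted p = 0.19). Without the replicate block (pairing by mouse), Steap4 kept log2 differences of 1.96 and −2.88 with adjusted p of 0.43 and 0.21. With libraries or mice left out, counts ran from 0 to 1 for each of these except gLmna-2 against gLmna-1, and for the difference of the guides between homozygous and wild-type cells. Of 2556 recomputed values of members, 130 values that had no test or changed sign without a call moved by more than 1 SE, 28 lost the call, 1 gained it and 0 turned a called direction. All calls rest on 2 mice per genotype, and only gLmna-2 against gLmna-1 for Steap4 passed in 10 of 11 alternatives. All parts of Ftl1 have at least 50 bases, so a minimum part length of 50 changed no value. The cause of the lost calls was not tested, and Slc40a1 and wild-type Steap4 are limited by few reads.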

Other observations

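NRF2 is a transcription factor that drives antioxidant genes and is known to act on ferritin genes as well. With gLmna-2 against gLmna-1 in homozygous Cas9 cells all 16 of its listed targets had a positive log2 difference, 2 were called higher by limma, beside 6.92% of all genes, and the median was 0.41 against 0.06 over all genes tested. In wild-type Cas9 cells 13 of 16 were positive in the same comparison (median 0.31 against 0.02), and in heterozygous cells 1 of 16. None was called in either, where 0% of all genes were called. The ferritin chains Ftl1 and Fth1 had log2 differences of 0.12 (SE 0.14) and 0.05 (SE 0.21) between these guides in homozygous Cas9 cells and did not pass.

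Dividing cells need iron and are known to carry more Tfrc. With both guides against gMock, 0 of 15 proliferation genes had a positive difference in homozygous Cas9 cells (median −0.30) and 0 of 15 in wild-type Cas9 cells (median −0.53 against −0.02 over all genes), and 8 of 15 in heterozygous cells (median 0.0056 against −0.0408), with 0 called in each. Of all genes, 0.0794%, 0.849% and 0% were called in homozygous, wild-type and heterozygous cells. Tfrc differed by −0.31, 0.0004 and −0.22 (SE 0.11 each) in the same order and did not pass. Its link to the proliferation genes was not tested. In heterozygous against wild-type Cas9 cells under the Lmna guides, 7 of 15 were called higher and 1 lower, with a median of 0.71, beside 4.33% of all genes called in either direction, and Tfrc had a difference of 0.25 (SE 0.13, limma adjusted p = 0.30).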
